A study of Mus musculus with 8 samples.

Results

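The regions described here are the stretches of mouse chromatin that were among the most accessible in every library of an IKZF1 induction time course. Overlapping peaks of the 8 deposited lists were merged into 174718 regions, and a region was kept when its highest peak, by the fold column, lay in the top 5% of its own list in all 8 lists. This gave 1493 regions, called the constant strong regions below. They were thus selected on peak strength in the same libraries, so their strength is a description here and supports nothing. A further 8676 regions were in the top 5% of some lists only, and 46382 other regions had a peak in all 8 lists without meeting the rule. The latter 2 groups overlap and serve as the comparison.

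ATAC-seq, in which the Tn5 transposase cuts accessible DNA, was made with the omni-ATAC protocol on B3 cells, a mouse line described as pre-B. All cells carried a retrovirally delivered Ikaros-ERt2 fusion, which enters the nucleus upon 4-hydroxytamoxifen (4-OHT). The 4 groups were untreated cells (0h, with no solvent control) and cells given 500 nM 4-OHT for 30 min (0.5 h), 1 h or 2 h, with 2 libraries each. The labels do not say whether the 2 libraries of a group came from separate cultures, so p-values measure only the spread between these libraries, which may be technical. Expression was forced from a viral vector in 1 transformed line, which limits the model. The lists held 85903 to 103897 peaks of short fragments of at most 120 bp, and the lowest fold in the top 5% was 21.9 to 23.3. Of 14 B lineage marker genes, 10 to 11 per library had a peak within 1 kb of a start site, against 1 to 3 of 8 T cell, 0 to 1 of 7 myeloid, 1 to 3 of 6 erythroid and 0 to 1 of 8 other tissue markers. Among the B lineage markers Ikzf1 and Ikzf3 had no such peak in any library.

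Strong and constant accessibility is a known property of the promoters of genes that nearly all cells use. Such promoters are often rich in CpG and carry words bound by broadly expressed factors, among them NF-Y at the CCAAT box, SP and KLF factors at GC boxes, and ETS factors. IKZF1 (Ikaros) is a zinc finger factor of lymphocytes that binds words with the core GGGAA and recruits corepressors.

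The sequences of 7 constant strong regions show the words that recur in them. Each is the exon-free part of the 200 bp around the median summit in GRCm38, on the strand of the gene for the promoters and on the plus strand for the other sites. Capitals mark matches to the words CCAAT (NF-Y), CCGGAAG (ETS), GGGCGG (SP/KLF) and the CTCF word, on either strand, so that ATTGG is CCAAT read from the other strand. Depdc1a (chr3:159495290-159495432, plus strand) and Zfp950 (chr19:61140841-61140952, minus strand) are shown as promoters with a single CCAAT close to the summit. Nfyc (chr4:120815713-120815897, minus strand), Med30 (chr15:52712240-52712407, plus strand) and Mcm10 (chr2:5012792-5012925, minus strand) are shown as promoters with 2 CCAAT words. The site 3.00 kb from H2-Ea-ps (chr17:34347645-34347844) and the intronic site in Slc34a1 (chr13:55405526-55405725) are shown as regions away from start sites, the latter with the CTCF word.
Depdc1a: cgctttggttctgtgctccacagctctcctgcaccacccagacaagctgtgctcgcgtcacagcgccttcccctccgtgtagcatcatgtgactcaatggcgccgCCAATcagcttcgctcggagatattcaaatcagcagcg
Zfp950: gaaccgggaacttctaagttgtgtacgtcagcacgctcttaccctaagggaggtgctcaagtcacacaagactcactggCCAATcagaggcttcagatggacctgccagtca
Nfyc: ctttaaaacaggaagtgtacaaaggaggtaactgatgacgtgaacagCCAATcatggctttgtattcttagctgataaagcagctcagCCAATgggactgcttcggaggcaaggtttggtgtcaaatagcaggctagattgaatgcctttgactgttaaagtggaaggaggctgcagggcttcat
Med30: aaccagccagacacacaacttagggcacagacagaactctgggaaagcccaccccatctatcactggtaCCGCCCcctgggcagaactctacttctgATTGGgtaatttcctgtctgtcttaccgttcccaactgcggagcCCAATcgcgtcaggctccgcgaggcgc
Mcm10: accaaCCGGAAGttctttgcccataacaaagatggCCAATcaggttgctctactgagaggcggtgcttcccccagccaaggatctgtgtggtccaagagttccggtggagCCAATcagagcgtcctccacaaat
H2-Ea-ps: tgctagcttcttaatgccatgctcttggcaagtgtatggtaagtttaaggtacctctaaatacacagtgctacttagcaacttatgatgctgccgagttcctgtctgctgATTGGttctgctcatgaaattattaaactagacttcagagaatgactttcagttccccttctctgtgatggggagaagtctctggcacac
Slc34a1: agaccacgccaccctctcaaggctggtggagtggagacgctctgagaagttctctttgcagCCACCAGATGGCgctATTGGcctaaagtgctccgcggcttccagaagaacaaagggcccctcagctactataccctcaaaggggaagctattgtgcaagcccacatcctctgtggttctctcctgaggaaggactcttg

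The fold in these lists is the number of fragments at the summit, plus 1, over the local background, plus 1. The median fold of the constant strong regions was 28.4 ± 1.13 at 0h, then 29.3 ± 0.566 (30 min), 29.1 ± 0.354 (1 h) and 29.6 ± 0.778 (2 h) (mean ± SD of the library medians, n = 2). Over the other regions in all lists it was 10.9 ± 0.849 at 0h and 12.2 ± 0.495 at 2 h. The underlying counts were a median of 61 to 82 fragments at the summit per library, against 16 to 23 in the other regions. In bulk libraries of this kind, fewer cells with an open site and fewer insertions per cell cannot be told apart. Averaged over the 8 libraries, single regions ranged from 24.0-fold to 113-fold, and 196 of the 1493 lay in the top 1% of every list.

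The last region inside the limit was an intronic site of Morc3 (chr16:93816268-93816756), at rank 4.9991% with a fold of 23.22 in its weakest library. The first region outside was an intronic site of the long non-coding gene Gm30382 (chr3:149436477-149436730), at rank 5.003% with a fold of 22.327. Most members changed little over the time course: the SD between replicates had a median of 0.103 on the log2 scale, and the range of the 4 time means had a median of 0.208. For 1451 of 1493 this range was under 0.5, and for 0 it was over 1, as the rule itself favours.

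**Figure D1:**
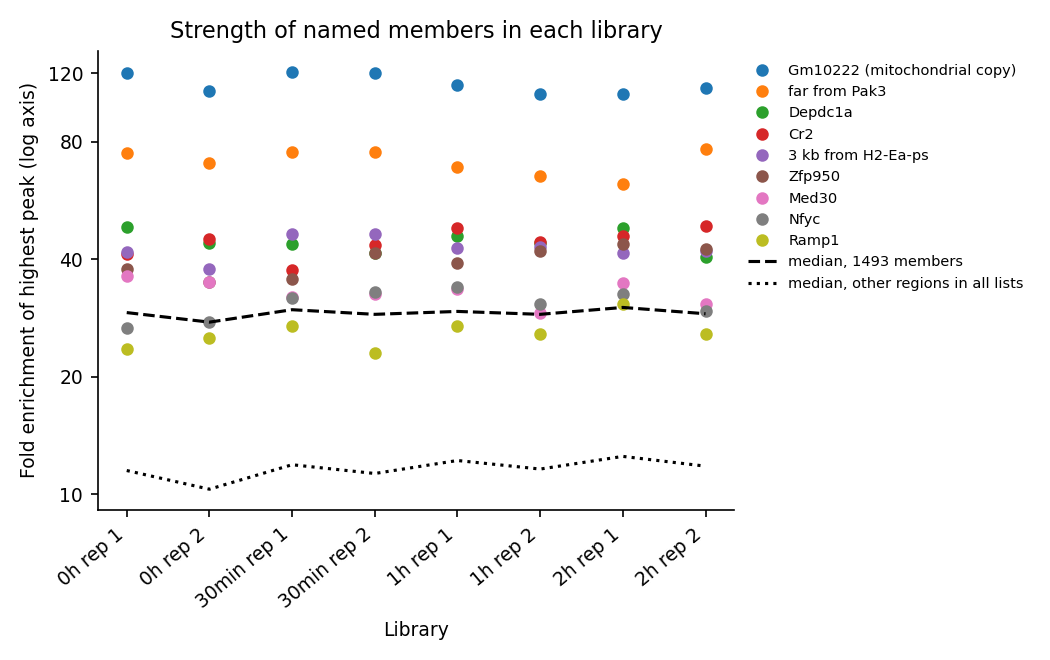
Fold of the highest peak (log axis) in each of the 8 libraries for 9 named constant strong regions, with the median over the 1493 regions (dashed) and over the 46382 other regions in all lists (dotted). The points of each region stay in a narrow band, with Gm10222 between 106 and 121 and Ramp1 between 23.0 and 30.8.

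Of the 1493 regions, 888 (59.5%, Wilson 95% interval 57.0 to 61.9%) lay within 1 kb of an annotated transcription start site and are called promoters here. The share was 36.6% for regions strong in some lists only, 28.9% for the other regions in all lists and 17.7% for all merged regions. Regions are not replicates of a condition, so these shares are descriptions without a test, and the interval covers counting error only. A protein-coding gene was among the start sites of 806 promoters. Start sites on both strands were found at 216 promoters, which is 24.3% of them, near the 21.5% of the other promoter regions. At the summit itself the annotation was intergenic for 56.8%, intron for 26.1%, untranslated exon for 12.1%, non-coding exon for 3.55% and coding exon for 1.47%. Within single lists, 42.8 to 51.4% of the top 5% of peaks were promoters, against 21.6 to 24.3% of all peaks. The former share was lower at each later time, with 49.3 and 51.4% at 0h and 47.8 and 47.5% at 30 min. It was 44.9 and 44.0% at 1 h and 42.9 and 42.8% at 2 h, and this fall was not tested. The 605 distal regions lay a median of 15159 bp from the nearest start site.

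The summits of the promoters sat in a narrow band before the start site. The median of the 888 positions was -42 bp, with quartiles of -84 and -7 bp, and 73.1% lay within 200 bp upstream. In the 13402 other promoter regions the median was -29 bp, the quartiles were -116 and 68 bp, and 45.3% lay within 200 bp upstream. By library, the promoter median ran from -46 to -39.5 bp, with -45 and -42 bp at 0h against -42 and -44 bp at 2 h. The 0h and 2 h values overlapped.

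**Figure D2:**
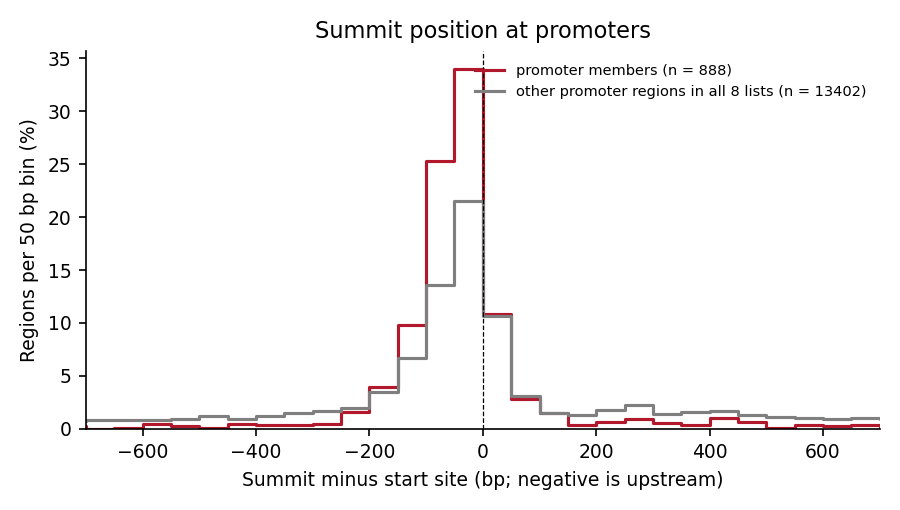
Distribution of the median summit position relative to the nearest transcription start site (bp, negative is upstream, 50 bp bins, percent of regions) for 888 promoters among the constant strong regions and 13402 other promoter regions. The former are concentrated just upstream, with a median of -42 bp and 73.1% within 200 bp upstream.

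Of the words searched, CCAAT showed the widest gap in percentage points between these promoters and other open promoters. It occurred in the 200 bp window of 56.8% of the 888 promoters, against 28.0% of the other promoter regions and 21.4% of all merged regions. Where it occurred, the nearest copy lay a median of 18 bp from the summit and 59 bp upstream of the start site, and 85.3% of copies lay within 50 bp of the summit, against 28 bp and 71.3% in the other promoter regions. The CCGGAAG word of ETS factors was found in 22.1% against 13.6%, and GGGCGG in 52.7% against 47.9%. The YY1 word ATGGCGG was in 7.66% against 5.93%, the CRE TGACGTCA in 3.72% against 2.51%, and the NRF1 word GCATGCGC in 3.38% against 3.69%. CpG content was similar, with medians of 7.0 and 6.5 CpG per 100 bp. Each window is centred on the summit, and 73.1% of these promoters had the summit within 200 bp upstream of the start site. In the other promoter regions 45.3% did, so the windows of these sets lie differently around start sites. The part of this in the word shares was not tested.

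Distal members differed from the other distal regions in a partly different set of words. The RUNX word TGTGGT was in 35.2% of 605 distal members, against 27.9% of the other distal regions. The PU.1 word GAGGAAGT, which shares GGAAG with the ETS word, was in 9.92% against 6.21%, and the EBF word in 5.12% against 2.49%. These 3 belong to factors of blood and B cell development, but so do words that were lower. The latter were the E2A word CAGGTG, at 15.7% against 19.1%, and the Ikaros core GGGAA, at 35.9% against 41.2%. The CTCF word in the whole region was also lower, at 9.26% against 11.9%. CCAAT did not set the distal members apart, at 19.0% against 19.5%. Of the other promoter words, GGGCGG was more frequent in distal members too, at 9.75% against 6.77%, and CCGGAAG was at 2.48% against 2.17%.

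The core word of the induced factor itself was not more frequent in these regions. The rule leaves out regions that left the top 5% after induction, while the comparison keeps them. The shares below are thus not independent of the rule. GGGAA was in 38.1% of the promoters against 44.4% of the other promoter regions, and in 35.9% of the distal members against 41.2% of the other distal regions. It can overlap the PU.1 and ETS words in part. The remaining words were rare in the windows of the 1493 members. The E-box CACGTG was in 5.49% of them and the AP-1 word TGANTCA in 5.69%. The TATA word TATAAA was in 4.82%, and in 2.03% of the promoters against 4.14% of the other promoter regions. The ZNF143 word was in 1.35% of the promoters against 0.455%. A match describes letters in a window and is neither a site nor a cause.

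**Figure D3:**
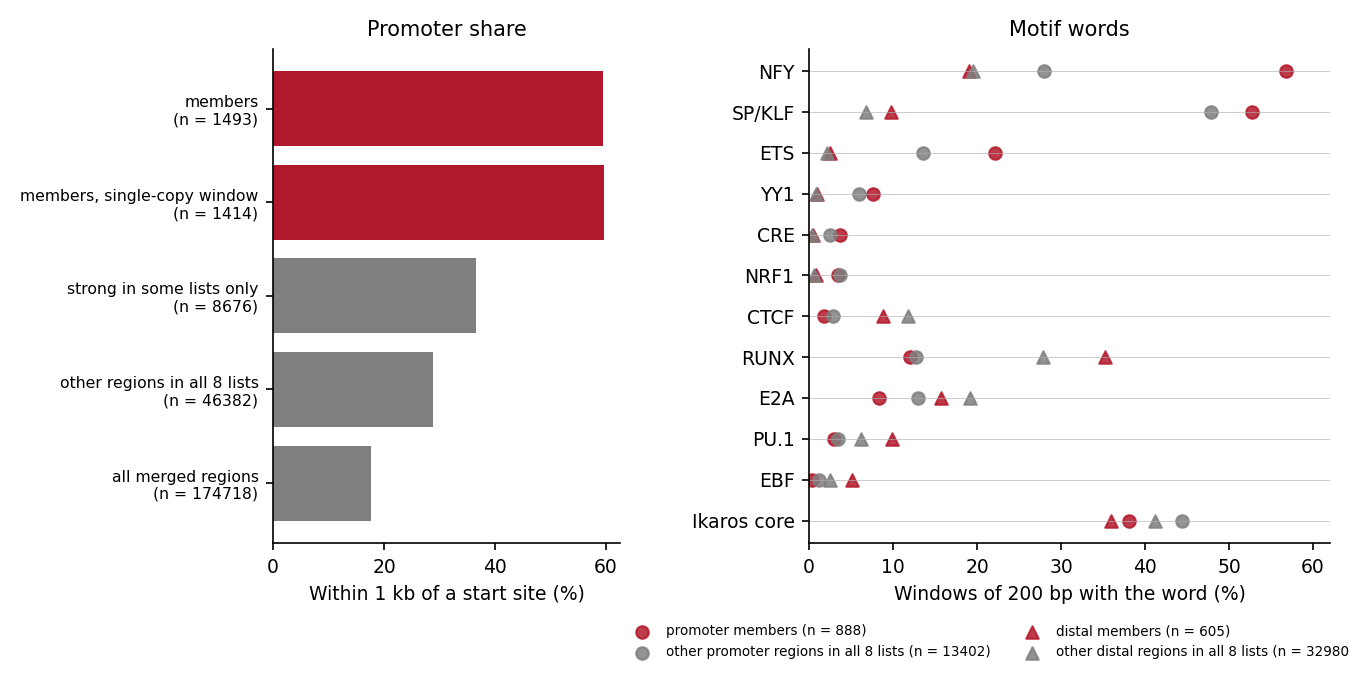
Left, percent of regions within 1 kb of a start site for 5 sets of regions. Right, percent of 200 bp windows holding each word for promoters (circles) and distal regions (triangles), red for the constant strong regions and grey for other regions in all lists. The NF-Y word shows the widest gap, 56.8% against 28.0% at promoters.

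Among the gene lists, the RNA polymerase II machinery, the respiratory chain and DNA replication had the highest shares of genes with a constant strong promoter. The counts are small and do not rank the functions. Most genes with such a promoter were in none of the lists. Of 21924 protein-coding genes, 933 (4.26%) had a constant strong region within 1 kb of a start site, or 9.26% of the 10081 genes with any region in all lists there. The RNA polymerase II machinery had 12 of 68 genes (17.6%), among them Taf10 and Tbp, parts of the TFIID complex, and Med30, Med24 and Med17, subunits of Mediator. At Med30 the fold was 36.2 and 34.9 at 0h, then 32.1 and 32.6 (30 min), 33.6 and 29.2 (1 h) and 34.7 and 30.7 (2 h), so that both 0h libraries were the highest. At Taf10 it was 33.5 and 28.4 at 0h against 29.7 and 29.1 at 2 h, and here the 0h and 2 h values overlapped. The respiratory chain had 13 of 83 genes (15.7%), with Cox7c and Cox8a of cytochrome oxidase, Ndufa6 and Ndufb2 of complex I, Sdhc and Sdhd of complex II and Atp5b of the ATP synthase. Cox7c was the strongest of them, at 40.6 and 39.3 at 0h, then 38.1 and 40.5 (30 min), 38.4 and 38.8 (1 h) and 41.6 and 38.8 (2 h). At Ndufa6 it was 33.7 and 37.5 at 0h, then 31.1 and 33.1 (30 min), 27.6 and 26.4 (1 h) and 30.0 and 29.3 (2 h), where the 0h libraries were the highest.

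DNA replication genes had 5 of 40 (12.5%): Orc1 and Orc2 of the origin recognition complex, Cdc6 and Mcm10 of origin licensing and firing, and Rrm1, the large subunit of ribonucleotide reductase. At Mcm10, whose window holds 2 CCAAT words and 1 ETS word, the fold was 29.4 and 32.4 at 0h against 27.6 and 24.8 at 2 h. The cell cycle list had 2 of 28, the cyclin Ccnb2 (25.1 and 27.5 at 0h, 39.4 and 31.8 at 2 h) and the mitotic kinase Aurka (27.9 and 24.2 at 0h, 29.3 and 24.3 at 2 h). The proteasome had 4 of 48, among them Psmd11 of the regulatory particle, with 33.0 and 26.5 at 0h against 30.5 and 31.1 at 2 h. Ribosomal proteins had 6 of 82. Rps6 of the small subunit had 31.7 and 31.5 at 0h, then 27.1 and 25.3 (30 min), 34.7 and 29.2 (1 h) and 36.2 and 31.6 (2 h), with the lowest values at 30 min. Splicing factors had 3 of 67 and translation factors 4 of 68. Snrpc, of the U1 particle, had 32.0 and 29.4 at 0h, then 27.6 and 26.7 (30 min), 25.2 and 25.6 (1 h) and 26.4 and 22.5 (2 h), with both 0h libraries the highest. Nfyc, which encodes a subunit of NF-Y, was the 1 of 19 ubiquitous promoter factors with a member, at 26.6 and 27.7 at 0h, then 31.9 and 33.0 (30 min), 33.9 and 30.7 (1 h) and 32.6 and 29.4 (2 h). Both 0h libraries were the lowest there.

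Counted among genes with a promoter region in all lists, the RNA polymerase II machinery (17.6%), the respiratory chain (17.3%) and DNA replication (12.5%) were above the 9.26% of all protein-coding genes. Proteasome (8.7%), ribosomal protein (7.59%), cell cycle (7.14%), translation factor (6.56%) and splicing factor genes (4.84%) were below it. The counts are small, with 5 of 40 for DNA replication and 4 of 46 for the proteasome, so these shares do not rank the functions. By median rank of the best promoter region, respiratory chain (7.56%), proteasome (9.14%) and DNA replication genes (9.68%) stood above all protein-coding genes (12.9%). RNA polymerase II machinery (10.0%), translation factor (10.8%) and ribosomal protein genes (10.9%) did so too. The order of the lists thus differed between the measures. Splicing factor (14.4%) and cell cycle genes (16.3%) stood below.

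Other general lists had 0 or 1 member each. The share was 7.69% for CTCF and cohesin and 6.67% for heat shock genes and for abundant non-coding RNAs. It was 1.49% for histones and 0% for glycolysis, against 4.26% of all protein-coding genes. Counts this small do not rank the lists. The CTCF and cohesin list had 1 of 13, Smc3, a core cohesin subunit, with folds of 27.6 and 28.5 at 0h against 25.9 and 28.4 at 2 h. Heat shock genes and chaperones had 1 of 15, Hsf1, whose region also serves Bop1. The abundant non-coding RNAs had 1 of 15, Rn7sk. Replication-dependent histones had 1 of 67, Hist1h4n, and glycolysis had 0 of 14 although all 14 had a region in all lists at a median rank of 8.61%.

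Genes of B cell identity on the lists searched were often open but had no member at a promoter. Of 41 B-lineage transcription factors 0 had a member, although 35 had a promoter region in all lists, whose best region ranked at a median of 19.7% of the lists and in the top 10% for 6 genes. For all protein-coding genes with such a region the median rank was 12.9%. The pre-BCR and recombination list had 0 of 24 at promoters, which for a list this short is near the 4.26% of all protein-coding genes. Of its genes 16 had a promoter region in all lists, with 6 in the top 10%, against 4059 of 10081 for all protein-coding genes. Cr2, a B cell gene on neither list, had a member at its promoter (average fold 44.2). A distal member lay 9.01 kb upstream of Pik3cd, the leukocyte PI3 kinase subunit (chr4:149710599-149710892), with folds of 32.0 and 32.0 at 0h, then 34.1 and 37.7 (30 min), 34.0 and 35.4 (1 h) and 40.9 and 37.7 (2 h), and the 0h libraries were the lowest. NuRD and corepressor genes had 0 of 18, and immediate early genes 0 of 18, which for short lists is also near the 4.26%. A list of 17 genes described by the study as IKZF1-repressed had 1 member. It was drawn from results of the same cells and is not independent evidence. This was Ramp1, a receptor-activity modifying protein, whose region 455 bp from its start site (chr1:91179149-91179367) stood at 23.5 and 25.1 at 0h, then 26.9 and 23.0 (30 min), 27.0 and 25.7 (1 h) and 30.8 and 25.8 (2 h). The 0h and 2 h values did not overlap there, with the lower values at 0h, but 25.1 and 25.8 lay close. Its change in strength rank at 2 h was not called (normal score 0.329 ± 0.282, SE, limma adjusted p = 0.443).

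**Figure D4:**
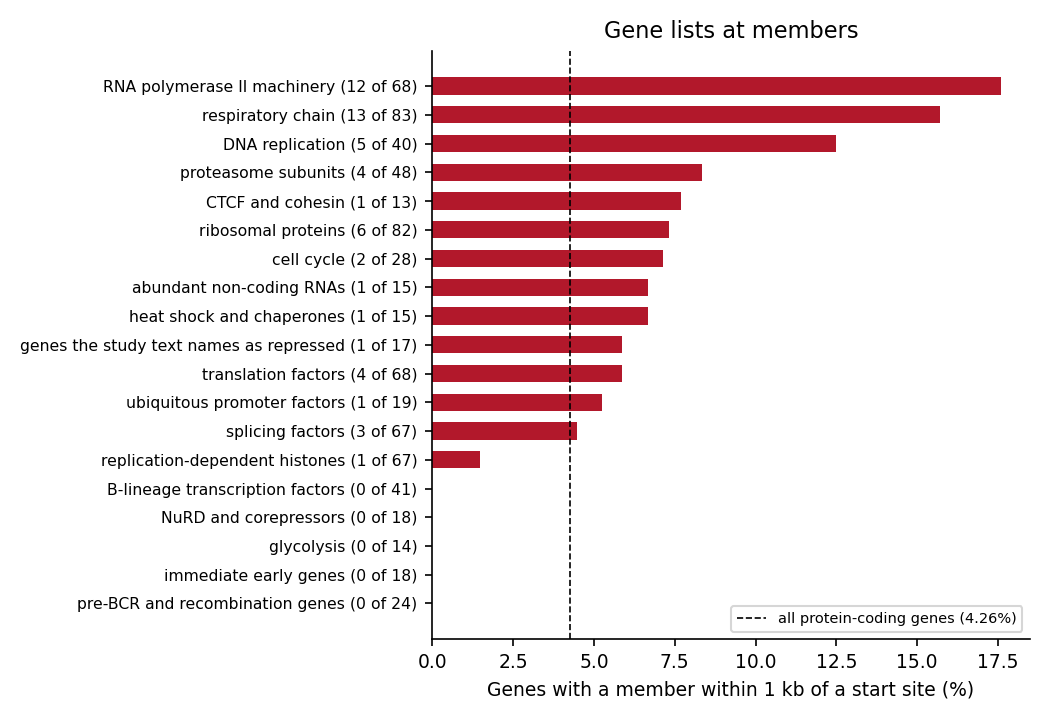
Percent of genes in each of 19 lists with a constant strong region within 1 kb of a start site, with the counts in the labels. The dashed line is the 4.26% of all protein-coding genes. RNA polymerase II machinery (17.6%) and respiratory chain (15.7%) reach furthest, and 5 lists are at 0.

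The strongest promoters in largely single-copy sequence, where under 50% of the 31-base words of the window occur again in the genome, were mixed in function. Depdc1a, a mitotic gene, had folds of 48.5 and 44.0 at 0h, then 43.7 and 41.6 (30 min), 45.8 and 43.9 (1 h) and 48.1 and 40.6 (2 h), with its CCAAT just before the start site. Cr2, complement receptor 2 of B cells, had 41.3 and 45.2 at 0h against 45.8 and 48.7 at 2 h. Trim12c, of the TRIM family, had 39.2 and 35.1 at 0h against 42.2 and 44.9 at 2 h. March2, a membrane ubiquitin ligase, and Zfp950, a zinc finger gene, averaged 40.6 and 39.5 over the libraries. Of the 10 strongest such promoters 7 held CCAAT in the window, the exceptions being Cr2, Cox7c and Gm15564. Averages over the 8 libraries are geometric means.

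The strongest distal region was far from genes. It lay 35.5 kb from Pak3 (chrX:143483007-143483105), with folds of 74.8 and 70.5 at 0h, then 75.4 and 75.5 (30 min), 68.9 and 65.2 (1 h) and 62.5 and 76.7 (2 h). Among the other largely single-copy sites were those 169273 bp from Gm20281 (average fold 55.3), 12672 bp from S1pr1, the sphingosine phosphate receptor of lymphocyte egress (39.4), and 3.00 kb from H2-Ea-ps in the MHC class II region (chr17:34347642-34348015). The last had 41.7 and 37.8 at 0h, then 46.4 and 46.3 (30 min), 42.8 and 43.1 (1 h) and 41.6 and 41.9 (2 h).

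A minority of the members, concentrated at the top, lay in sequence that occurs more than once. In 79 of 1493 (5.29%) at least 50% of the 31-base words of the window had another copy in GRCm38, against 1.79% of the other regions in all lists. These made up 48 of the 150 strongest members and 2 of the 149 weakest. Fragments from such copies cannot be placed with certainty, so their levels are uncertain. The single strongest member, at Gm10222 (chr1:24613010-24613225), was the 1 region whose window mostly matched mitochondrial DNA, with folds of 120 and 108 at 0h, then 121 and 120 (30 min), 112 and 106 (1 h) and 106 and 110 (2 h). Others were 2610005L07Rik (average fold 63.9), Gm21769 (60.6) and, in a repeat array on chromosome 9, Gm10718 (57.8) and Gm11168 (55.0). Not all were steady: the site 50638 bp from Ykt6 had 37.8 and 32.3 at 0h, then 51.8 and 40.8 (30 min), 64.3 and 57.1 (1 h) and 67.1 and 68.1 (2 h). Without the multi-copy windows 1414 members remained, 59.6% of them promoters, and 4.74% held the CTCF word against 4.96% of all members.

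Peak width did not separate the time points. The highest peak of a member had a median width of 283 and 267 bp in the 0h libraries, 280 and 271 bp at 30 min, 278 and 273 bp at 1 h, and 273 and 267 bp at 2 h. The time means were 275 ± 11.3 bp at 0h and 270 ± 4.24 bp at 2 h (SD, n = 2), and the difference of -5.0 bp was smaller than the gap between the 0h replicates. Without 0h replicate 1 it was 3.0 bp. With 2 against 2 libraries an exact permutation test cannot give a p below 0.333. The other regions in all lists were narrower, at 163 ± 9.9 bp at 0h and 164 ± 2.12 bp at 2 h. Width was not used by the rule, but wide and strong go together in peak calling, so this gap is no independent property.

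Width was then tested for each region with limma on log2 widths over all 47875 regions in all lists (Benjamini-Hochberg, adjusted p under 0.01). Wider and narrower are relative to the median log2 width of these regions in each list. At 30 min 0 members were called, as were 0% of all regions wider and 0% narrower. At an unadjusted p under 0.05, 22 of 1493 members were wider and 79 narrower, against 3374 and 3468 of all 47875 regions. Without centring of the widths, these were 34 and 63 members, against 4065 and 2789 of all regions. At 1 h 1 member was wider, against 0.165% of all regions, and 2 were narrower, against 0.322%. At an unadjusted p under 0.05 these were 50 and 97 members, against 4772 and 4881 of all regions. At 2 h 0 members were wider, against 0.332%, and 3 were narrower, against 0.602%. At an unadjusted p under 0.05 these were 61 and 103 members, against 5781 and 5621 of all regions. The shares among members (0.067% and 0.134% at 1 h, 0.201% narrower at 2 h) were thus no higher than the background. When any 1 of the 8 libraries was left out, 0 of all 47875 regions were called, members included, so those fits say nothing about the members.

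In each called region the number of peaks in the lists changed between 1 and 2 along with the width. The intronic Slc34a1 region (chr13:55405509-55406048), printed above with its CTCF word, was 479 and 506 bp wide at 0h, 237 and 208 bp at 30 min, 234 and 202 bp at 1 h, and 177 and 197 bp at 2 h. The log2 width change at 2 h was -1.40 ± 0.138 (SE, limma adjusted p = 0.00699), and its summit stayed within 2 bp of the 0h position in all 8 libraries. At Zfp85, a zinc finger gene (chr13:67754833-67755287), the widths were 452 and 415 bp at 0h and 172 to 193 bp in the 6 later libraries, a change of -1.24 ± 0.122 at 2 h (limma adjusted p = 0.00699). At Gm18485 (chr6:116621063-116621652) they were 574 and 581 bp at 0h and 200 to 228 bp later, a change of -1.48 ± 0.114 (limma adjusted p = 0.00542). In all 3, the lists held 1 peak in the region at 0h and 2 in each of the later libraries. With the widths of all peaks in a region summed, 0 members were called at any time, but the 2 h change kept its direction. It was then -0.97 at Gm18485 (limma adjusted p = 0.012), -0.54 at Slc34a1 (limma adjusted p = 0.062) and -0.53 at Zfp85 (limma adjusted p = 0.0444). Cox16, a cytochrome oxidase assembly factor, ran the other way at 1 h, with 210 and 189 bp at 0h, then 476 and 472 bp (30 min), 479 and 467 bp (1 h) and 242 and 247 bp (2 h) (change at 1 h 1.22 ± 0.107, limma adjusted p = 0.00713). It had 2 peaks at 0h and 2 h, and 1 peak between. The largest widening at 2 h, at Zfp672, did not pass, with 258 and 254 bp at 0h against 646 and 594 bp at 2 h (1.28 ± 0.218, limma adjusted p = 0.0252).

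**Figure D5:**
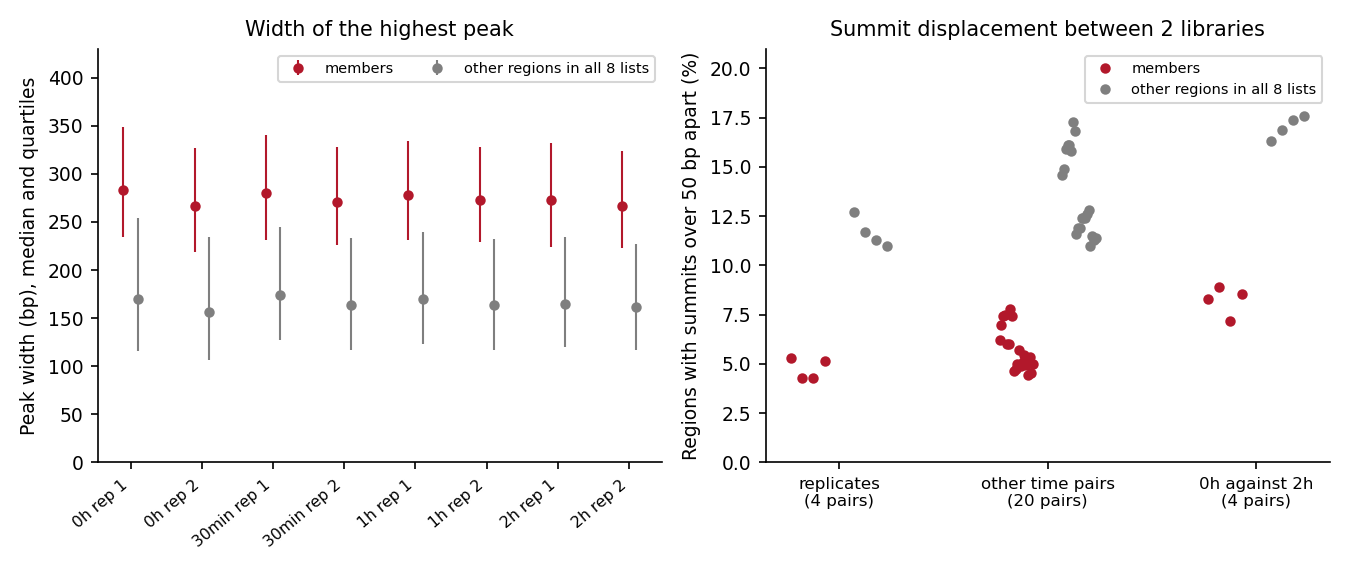
Left, median and quartiles of the width (bp) of the highest peak in each library for 1493 constant strong regions (red) and 46382 other regions in all lists (grey). Right, percent of regions whose summits lay over 50 bp apart, 1 point per pair of libraries: members are at 4.29 to 5.29% between replicates and 7.17 to 8.91% between 0h and 2 h, other regions at 11.0 to 12.7% and 16.3 to 17.6%.

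Summits over 50 bp apart were more frequent between a 0h library and a later one than between replicates, while the range for pairs of later time points overlapped that of replicates. The median displacement of a member's summit was 10 to 12 bp between replicates (4 pairs of libraries) and 12 to 13 bp between 0h and 2 h libraries (4 pairs). Displacements over 50 bp were found in 4.29 to 5.29% of members between replicates and in 7.17 to 8.91% between 0h and 2 h. The values were 6.03 to 6.97% between 0h and 30 min and 7.43 to 7.77% between 0h and 1 h. Between different later time points they were 4.42 to 5.69%. In the other regions in all lists they were 11.0 to 12.7% between replicates and 16.3 to 17.6% between 0h and 2 h. Library pairs have libraries in common, so these ranges were not tested. Over all 8 libraries the summits of a member spanned a median of 37 bp, and within 50 bp in 71.1% of members against 43.3% of the other regions.

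Summit position was tested in the same way (limma, adjusted p under 0.01). It gave 2 members at each of 30 min, 1 h and 2 h, or 0.134%, against 0.629%, 0.790% and 0.856% of all regions. The members called were the same 2 at each time, Tmem181b-ps and Gm14409, and both have multi-copy windows. At Tmem181b-ps (chr17:6467963-6468235) the summit lay 3 bp to either side of its mean position in the 0h libraries and -139, -134, -139, -129, -134 and -133 bp from it in the later ones. The change at 2 h was -134 ± 10.7 bp (SE, limma adjusted p = 0.00186). At Gm14409 (chr2:177277819-177278098) the 0h summits coincided and the later ones lay at -109 to -116 bp, a change of -110 ± 10.0 bp at 2 h (limma adjusted p = 0.0034). The fold at Tmem181b-ps showed no such step between 0h and 2 h, with 33.6 and 28.4 at 0h against 30.0 and 33.8 at 2 h. The part of the copies in these shifts was not tested. Without any 1 library the members called numbered 0 to 1 at 30 min, 0 to 3 at 1 h and 0 to 2 at 2 h.

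The largest shifts with single-copy sequence did not pass. At the shared promoter of Fto, an RNA demethylase gene, and Rpgrip1l, a ciliary gene (chr8:91313173-91313607), the summits lay at -1 and 1 bp at 0h, then -125 and -19 bp (30 min), -135 and -142 bp (1 h) and -137 and -138 bp (2 h) (2 h against 0h -138 ± 31.2 bp, limma adjusted p = 0.144). At an intronic site 14189 bp from AC107792.3 (chr17:73531944-73532373) they lay at 19 and -19 bp at 0h, then 28 and 17 bp (30 min), 113 and 105 bp (1 h) and 127 and 109 bp (2 h) (118 ± 16.1 bp, limma adjusted p = 0.0204). At Slc39a3, a zinc transporter gene, only the 2 h libraries stood apart, at -103 and -126 bp (-115 ± 23.2 bp, limma adjusted p = 0.0998).

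Ranks of strength within each list are given as a description, since the rule used them and holds them in the top 5%. At 30 min 0 members were called by limma in either direction, against 0% of all regions. At an unadjusted p under 0.05 77 members were higher and 17 lower, against 4552 and 4759 of all regions. At 1 h 0 members were higher, against 1.10% of all regions, and 1 was lower, against 2.51%. At an unadjusted p under 0.05 these were 102 and 70 members, against 7129 and 7442 of all regions. At 2 h 3 were higher, against 2.28%, and 1 was lower, against 4.71%, or 99 and 95 members at an unadjusted p under 0.05, against 8187 and 8344 of all regions. Acad8, an acyl-CoA dehydrogenase gene that shares its promoter with Thyn1, had folds of 38.9 and 43.1 at 0h, then 30.0 and 27.5 (30 min), 25.4 and 25.7 (1 h) and 27.3 and 28.7 (2 h). Sbno2, a transcriptional coregulator gene, had 37.2 and 38.3 at 0h, then 32.7 and 31.9 (30 min), 29.0 and 26.3 (1 h) and 24.7 and 25.6 (2 h). A site 13512 bp from Gm19136 went the other way, with 24.7 and 24.0 at 0h, then 29.6 and 30.4 (30 min), 32.2 and 34.2 (1 h) and 37.5 and 38.8 (2 h). A site 60213 bp from Gm22778 had 24.7 and 22.1 at 0h against 37.4 and 36.0 at 2 h. A multi-copy site near Gm21742 had 29.3 and 26.9 at 0h against 46.2 and 45.1 at 2 h. All of these regions were named for their change in rank, so a gap between their 0h and 2 h values is no support. In each of these the 0h and 2 h libraries did not overlap, and 0 members were called when any 1 library was left out. At 2 h those fits called 17 to 893 of all regions higher and 182 to 1951 lower.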

How the data were processed

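The 8 deposited narrowPeak lists, 1 for each ATAC-seq library, were analysed in GRCm38 coordinates. Per the labels and the study's methods, the authors used bcl2fastq 2.20.0, BWA 0.7.17, SAMtools 1.9, bedtools 2.27.1 and deepTools 2.3.5, kept Tn5-shifted fragments of at most 120 bp, and called peaks on each library with MACS2 2.1.2 without a control. The lists still held satellite and mitochondrial-like sequence, so no exclusion list was taken to have been applied. The deposited columns are a score (not used for results), the fold over local background (a ratio), and −log10 values of p and of q (−log10 p-value, −log10 q-value). Depth per library is not in the lists. Fragments at the summit were recovered from the fold and the −log10 p-value, which gave whole numbers for 100% of peaks in each list (relative tolerance 0.001), and the genome background was 0.26 to 0.405 fragments per base. Counts limit the precision, and intervals cover counting error only.

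Peaks overlapping by at least 1 bp were merged. Start sites came from the GENCODE M21 basic set. Windows of 200 bp around the median summit were read from GRCm38.p6. Width, summit position and rank were fitted over all 47875 regions in all 8 lists with limma 3.58.1 (R 4.3.3; 2-sided, Benjamini-Hochberg, adjusted p under 0.01), after a check on simulated data. Log2 widths were centred on the median of the tested regions in each list. Regions, gene lists and words were chosen with earlier results of these data known. Named regions were the 10 strongest promoters and distal regions, members at genes of the listed sets, the largest width, summit and rank changes, and those next to the limit. The strongest single-copy regions, the distal site near Pik3cd, and the zinc finger genes were named after their values were seen. Alternatives were other limits, ranking columns, merging rules, start site distances, priors, thresholds, a replicate block and leaving out each library. Read counts and the study's other assays were not analysed here. Results for 1 gene are not reported here.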

Additional observations from a re-analysis of the deposited data

How the results depend on the processing

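The number of members was 433 for the top 2% and 3817 for the top 10% of each list, against 1493, and 1518 to 1735 when each library was left out. Ranking by −log10 p-value gave 1808 and ranking by fragments 2054, which overlapped 73.8% and 60.1% of the members, so the strongest set depends on the column used. The promoter share of 59.5% became 66.9% by −log10 p-value, 67.7% by fragments, 55.9% within 250 bp of a start site and 54.0% with protein-coding start sites alone, and without each library it was 56.7 to 59.97%. The CCAAT share of promoters of 56.8% became 60.2% for the top 2% and 50.9% for the top 10%, and 57.9 to 58.8% by the other 2 ranking columns. The median width difference of -5.0 bp ran from -13.0 to 3.0 bp without each library, changing sign without 0h replicate 1, and the summit displacement of 12.8 bp from 12.5 to 13.0 bp. Regions were ranked by fragments, restricted to single-copy windows, or scored for CCAAT under other rules after seeing the data.

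The few calls among members rest on the fit. Counts of members with a changed width (0 at 30 min, 3 at 1 h, 3 at 2 h) became 12, 20 and 29 at adjusted p under 0.05, 4, 9 and 8 with a trended robust prior, and 0 at 1 h and 2 h with summed widths. Counts of shifted summits (2 at each time) became 4, 7 and 8 at adjusted p under 0.05. Counts of changed ranks (0, 1 and 4) became 2, 40 and 64 at adjusted p under 0.05, 4, 31 and 55 with the trended robust prior, and 5 and 12 at 1 h and 2 h by −log10 p-value. Without each library in turn the counts were 0 for width, as over all regions, 0 to 1 for summits at 30 min, 0 to 3 at 1 h and 0 to 2 at 2 h, and 0 for rank; such fits assume that a lone library varies like the others. The cause of these changes was not tested.

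Replicate numbers showed little pairing region by region, with correlations of same-numbered deviations of 0.00512 to 0.0403. Widths were centred and folds ranked within each list first, so this check cannot see a shift shared by a whole list. Replicate 1 had more peaks than replicate 2 at each time, with 93936 against 85903 at 0h and 103897 against 99060 at 2 h. Whether the numbers pair the libraries is thus not settled. With the replicate number as a block, width calls were 0 at each time, summit calls 1 at each time, and rank calls 0 at 30 min, 0 at 1 h and 1 at 2 h. The direction of every called member was kept under each alternative tried, but most alternatives could not have changed it. A threshold, a prior or the replicate block leaves the estimate as it is here. Leaving out a library of a time point outside the comparison does so too.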

Other observations

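Clusters of immunoglobulin segments and of zinc finger genes recurred among the members, and both were chosen after their values were seen. On chromosome 12, the megabase from 115 to 116 Mb held 17 members, more than any other, and 12 of them had multi-copy windows. Counts per megabase, here and below, were not set against the number of open regions there. Over the immunoglobulin heavy chain locus as a whole 15 members had a variable segment (Ighv) as nearest gene, of 111 such regions with a peak in all 8 lists. Members were 1493 of the 47875 regions in all lists, and 80 of 1987 on chromosome 12. Variable segments are joined to D and J segments in developing B cells. Their average folds ran from 26.1 to 53.5, and 11 of the 15 windows had multi-copy sequence. The strongest, near Ighv1-59 (chr12:115334938-115335209), stood at 55.3 and 49.2 at 0h, then 60.6 and 50.0 (30 min), 53.0 and 57.0 (1 h) and 55.1 and 49.1 (2 h).

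Zinc finger genes were the other kind. Of 365 protein-coding genes named Zfp with a number, 43 (11.8%) had a member at a start site, against 4.26% of all protein-coding genes, and 16.7% of the 257 with any such region in all lists, against 9.26%. They lay in 42 regions with average folds of up to 39.5, of which 6 had multi-copy windows and 0 the CTCF word. The megabase from 67 to 68 Mb of chromosome 13 held 7 members, all promoters, among them Zfp58, Zfp85, Zfp87, Zfp458 and Zfp738. No test of these shares was made.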
